A study of Mus musculus with 4 samples.

Results

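Replication-dependent histone genes were examined in mouse embryonic stem cells (ESCs) with and without targeting of Kdm2a, a demethylase of H3K36. Members were the genes that RefSeq names, now or in an older Hist1 to Hist4 symbol, as clustered core or linker histone genes, with pseudogenes left out. RefSeq lists 67 such genes, and 62 of the 24116 genes in the count table were members. The other 5, H3c15, H2ac18, H2bc23, H2ac24 and H3c4, had no row under their gene number. The 62 members comprised 6 genes of linker histone H1, 16 of H2A, 17 of H2B, 10 of H3 and 13 of H4. Of these, 51 lay in the Hist1 cluster on chromosome 13, 8 in Hist2 on chromosome 3, 2 in Hist3 on chromosome 11 and 1, Hist4h4, on chromosome 6.

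Replication-dependent histone genes supply the bulk of the histone proteins that package newly copied DNA, and their mRNA accumulates in S phase and decays when DNA synthesis stops. Most of these mRNAs are not polyadenylated. They end shortly after a conserved stem-loop that is bound by SLBP and cut with the help of the U7 small nuclear ribonucleoprotein. Replication-independent variants such as H3.3 and H2A.Z are encoded elsewhere by ordinary polyadenylated mRNAs.

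RNA-seq was compared between 2 libraries labelled Kdm2a knockout and 2 libraries of wild-type cells, all with the strain label 12910la and grown in serum medium with leukaemia inhibitory factor on gelatin. The titles and protocol of the first group name a knockout, made with a guide RNA and expanded from a single sorted clone, while its genotype label calls Kdm2a knocked down. The labels name no separate cultures for the replicates. The p-values below therefore reflect the spread among these 4 libraries, and that spread may be technical.

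Total counts were 19056529 and 18872382 in the knockout libraries, against 19005131 and 18844246 in the wild-type libraries. At this depth 3 counts, the limit that a count of 0 allows, equal 0.155 to 0.165 CPM (counts scaled to a common library size by TMM), and such limits cover counting error only. Kdm2a itself had 3710 and 4753 counts in the libraries labelled knockout, against 2899 and 3554 in the wild-type libraries. It was thus not lower in the libraries labelled knockout (log2 fold change 0.44, SE 0.24, adjusted p = 1.00 by edgeR's quasi-likelihood test), and a count over the whole gene does not show whether a guide RNA changed its sequence. A knockout library below is one that carries this label, and every direction given rests on the label. The libraries did not group by genotype in log2 CPM. Knockout 1 correlated at 0.984 with wild type 1 and 0.978 with wild type 2, against 0.952 with knockout 2. Markers of pluripotent cells were high in every library, with a summed level of 7412 and 6225 CPM in the knockout libraries and 6879 and 6797 CPM in the wild-type libraries over 10 genes. Among fibroblast markers, Fn1 had 32233 and 42945 counts in knockout and 37253 and 31005 in wild type, Thy1 had 593 and 323 in knockout and 699 and 316 in wild type, and Pdgfrb had 504 and 180 in knockout and 841 and 320 in wild type. Col1a1 had 100 and 38 counts in knockout and 169 and 82 in wild type, and Pdgfra had 42 and 28 in knockout and 43 and 32 in wild type. Col1a2, Col3a1, Postn, Lum and Dcn had 0 to 6 counts in every library.

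The stem-loop is shown here because it is the known 3′ end feature of these mRNAs. It was not used to choose the members. It was searched in GENCODE transcripts on GRCm38 as GGNNNTTTNNANNNCC with the first 6 and the last 6 bases complementary. A match was found in 40 of the 62 members (64.5%) and in 80 of 55450 genes (0.144%). Many GENCODE histone transcripts stop at the coding end and so cannot hold the match. The sequences below are written as DNA in the sense of the mRNA, 5′ to 3′, with the complementary arms in capitals and the loop in lower case.
H1f2, chr13:23739512-23739527, plus strand: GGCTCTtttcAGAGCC
H2ac23, chr13:21810898-21810913, plus strand: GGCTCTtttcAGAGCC
H2bc3, chr13:23747203-23747218, plus strand: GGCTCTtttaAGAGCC
H3c6, chr13:23561903-23561918, minus strand: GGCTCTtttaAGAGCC
H4c3, chr13:23698089-23698104, minus strand: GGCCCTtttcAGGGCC
The form of H1f2 and H2ac23 was found in 22 members, the form of H4c3 in 7 and the form of H2bc3 and H3c6 in 6. The remaining 5 members had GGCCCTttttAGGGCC (2 members), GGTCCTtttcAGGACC (2 members) or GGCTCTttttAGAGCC (1 member). A polyadenylation signal, AATAAA or ATTAAA in the last 40 bases of a GENCODE transcript, was present in 16 of the 62 members (25.8%), and 13 of those also held the stem-loop. A transcript that stops at the coding end cannot show a signal past that end, and the share over all genes is not given.

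Promoters were read from RefSeq on GRCm38.p6, from 250 bases before to 50 bases after the start, and 57 of the 62 members matched 58 promoters. Motifs were searched on both strands. The octamer ATTTGCAT was present in 7 of 16 H2A promoters and 7 of 16 H2B promoters, in none of the 26 promoters of the other classes, and in 1.74% of all 32851 promoters. Windows of head-to-head genes overlap, so a site can be counted in both classes. This holds for the octamers of H2ac1 and H2bc1, H2ac8 and H2bc8, and H2ac12 and H2bc12. CCAAT was present in every promoter of H1, H2A, H2B and H3 and in 3 of 12 H4 promoters, against 37.4% of all promoters. TATAAA was present in 56.9% of the members' promoters and 13.6% of all promoters. The H1 box AAACACA was present in 5 of 6 H1 promoters and 7.18% of all promoters. A match describes the letters in the window and is not evidence of binding. The promoters of H1f2, the leading H1 gene, of H2ac6, the gene with the most negative fold change, and of H2ac23, the member with the most reads, are printed with these motifs in capitals.
H1f2, chr13:23738557-23738856, plus strand: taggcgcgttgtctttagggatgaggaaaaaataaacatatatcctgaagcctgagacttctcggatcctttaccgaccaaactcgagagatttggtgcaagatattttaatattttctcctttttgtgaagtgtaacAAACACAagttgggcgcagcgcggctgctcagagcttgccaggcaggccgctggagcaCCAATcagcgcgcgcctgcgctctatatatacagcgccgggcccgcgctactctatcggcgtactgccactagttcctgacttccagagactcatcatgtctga
H2ac6, chr13:23683910-23684209, minus strand: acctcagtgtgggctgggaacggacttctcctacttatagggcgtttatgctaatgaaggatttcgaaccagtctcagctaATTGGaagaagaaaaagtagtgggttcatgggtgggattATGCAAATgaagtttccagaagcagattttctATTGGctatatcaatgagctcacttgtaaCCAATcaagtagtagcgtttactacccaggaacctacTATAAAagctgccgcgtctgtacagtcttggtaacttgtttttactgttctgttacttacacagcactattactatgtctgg
H2ac23, chr13:21810117-21810416, plus strand: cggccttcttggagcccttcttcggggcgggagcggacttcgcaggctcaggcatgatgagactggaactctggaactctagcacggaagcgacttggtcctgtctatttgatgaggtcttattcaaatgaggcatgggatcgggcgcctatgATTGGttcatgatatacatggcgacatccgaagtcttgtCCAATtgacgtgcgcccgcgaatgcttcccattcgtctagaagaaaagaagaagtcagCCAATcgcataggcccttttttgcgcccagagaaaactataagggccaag
The H2ac6 window holds the octamer, here on the opposite strand as ATGCAAAT, together with CCAAT and TATAAA. It spans the 239 bases that separate the starts of H2ac6 and its divergent neighbour H2bc4. The H2ac23 window shares 267 of its bases without a mismatch with the other strand of the H4bc24 window at chr13:21833493-21833792, so these 2 genes lie in copies of the same stretch.

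The histone genes were measured at low counts. Over all 62 members the median was 10.6 counts per library (0.560 CPM). The median was 24.3 CPM over the genes that passed the filter on low counts, a filter that 30 of the members did not pass. A mean of at least 50 counts was reached by 8 members, and 30 had a mean under 10. Every member had at least 1 count in some library. The labels speak of fragmented mRNA and random priming and do not say whether poly(A) RNA was selected. Members with a polyadenylation signal had a median of 11.3 counts, from 2.50 to 182.5, and members without one had a median of 9.63 counts, from 0.250 to 2364, so the ranges overlapped. The members without one include genes whose annotated transcript stops at the coding end. In 50-base pieces, the length of the reads, 58 of the 62 members (93.5%) shared sequence with another gene, and 30 had under 50% of their pieces to themselves. How reads that match several genes were counted is not given in the sources used here, so the split of reads between close copies is uncertain.

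**Figure D1:**
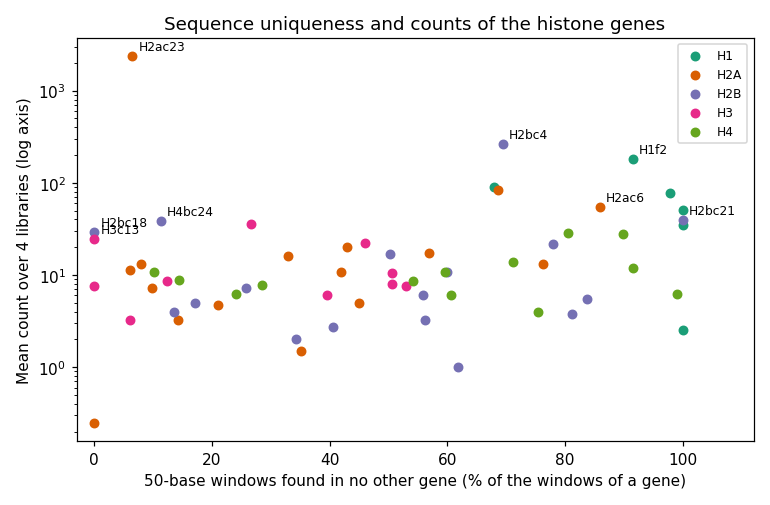
Mean count over the 4 libraries (log axis) of each of the 62 histone genes, against the percent of its 50-base windows found in no other gene, coloured by class. H2ac23 stands at the top with 6.50% unique windows, and H1f2 combines 91.5% unique windows with a mean of 182.5 counts.

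No histone gene passed the test between knockout and wild type. Of the 62 members, 32 passed the filter and were tested, and 0 had an adjusted p under 0.05 by edgeR's quasi-likelihood test, as did 0 of all 14194 genes tested (0%). DESeq2 called 2 of all genes (0.0141%), edgeR's likelihood ratio test called 4 (0.0282%) and limma-voom called 0, and none of these was a histone gene. Leaving out 1 library at a time, 1 histone gene was called without knockout 1 (H4c17) and 1 without knockout 2 (H3c13), both described with their class. At an unadjusted p under 0.05, 242 of all genes passed (1.7%), of which 126 were higher in knockout (0.888%), and 1 histone gene passed, H4bc24. In these bulk samples, a change in the share of cells in S phase and a change in histone RNA per cell cannot be told apart, in either direction.

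The fitted fold changes of the tested histone genes were mostly above 0, without a test of that pattern. Of the 32, 23 were positive and 9 negative, with a median log2 fold change of 0.28, beside a median of 0.0029 over all genes tested. Both knockout libraries lay above both wild-type libraries in CPM for 9 members (28.1%), against 11.7% of all genes tested. They lay below both wild-type libraries for 2 members (6.25%), against 12.7% of all genes tested. The 9 were H1f1, H1f2, H1f3, H2ac10, H2ac15, H2bc8, H4bc24, H4c1 and H4c4, and the 2 were H1f5 and H2ac6. H4c1, with 16 and 11 counts in knockout against 10 and 6 in wild type, passed the filter only through the knockout libraries. The filter's minimum of 10 counts is scaled to library depth. In H2ac10, H2ac15 and H4c4, knockout 2 and a wild-type library had equal counts (11, 20 and 30), so scaling alone set them apart. The nearest libraries of H2bc8 had 16 counts in knockout and 15 in wild type. The members share clusters and sequence, so the numbers of separated members do not come from independent genes. By library, the median member differed from its wild-type mean by 0.38 and 0.13 log2 units in the knockout libraries and by 0.24 and -0.24 in the wild-type libraries. The 2 wild-type values mirror each other because their mean is the reference. On this measure wild type 1 lay between the 2 knockout libraries. The difference between the group means exceeded the difference between replicates of both groups in 7 of the 32 members (21.9%), against 13.1% of all genes tested.

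**Figure D2:**
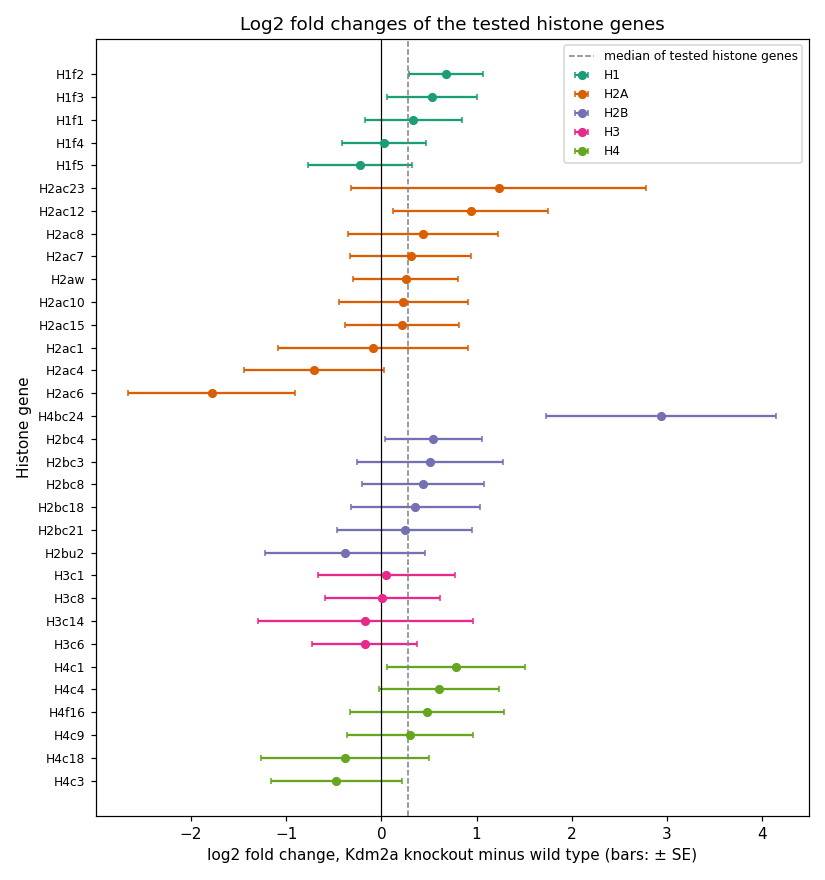
Log2 fold change (knockout minus wild type) of the 32 tested histone genes, with bars of 1 SE either side, coloured by class. The points centre on a median of 0.28 (dashed line), and 2 exceed 2 SE from 0, H4bc24 upwards and H2ac6 downwards.

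Linker histones of the H1 family bind where DNA enters and leaves the nucleosome, and 3 of their 6 genes, H1f1, H1f5 and H1f6, shared no 50-base window with another gene. H1f2 (Hist1h1c, chr13:23738807-23739531 in RefSeq GRCm38.p6) led the class, with 256 and 189 counts in the knockout libraries against 160 and 125 in the wild-type libraries. Both knockout libraries lay above both wild-type libraries. Its level was 11.9 ± 2.11 CPM in knockout and 7.42 ± 1.33 CPM in wild type (SD, n = 2 each), a log2 fold change of 0.68 (SE 0.39, adjusted p = 1.00 by edgeR's quasi-likelihood test). H1f3 (Hist1h1d) had 88 and 93 counts in knockout against 77 and 52 in wild type, and its log2 fold change was 0.53 (SE 0.48). H1f1 (Hist1h1a) had 60 and 53 counts in knockout against 50 and 42 in wild type, with a log2 fold change of 0.34. For all 3 the groups did not overlap, with knockout higher, as in 11.7% of all genes tested. The differences did not pass the test.

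H1f4 (Hist1h1e) had 83 and 95 counts in knockout against 99 and 81 in wild type, so the groups overlapped, with a log2 fold change of 0.03 (SE 0.44). H1f5 (Hist1h1b) had 32 and 31 counts in knockout against 35 and 41 in wild type, with a log2 fold change of -0.23. Its knockout libraries lay below both wild-type libraries, as in 12.7% of all genes tested and opposite to H1f1, H1f2 and H1f3. The testis linker histone H1f6 (Hist1h1t) was near the limit of detection, with 0 and 4 counts in knockout and 1 and 5 in wild type. Summed over the class, H1 reached 27.1 and 25.5 CPM in the knockout libraries and 22.0 and 17.9 CPM in the wild-type libraries. This sum did not overlap between the groups, and H1f2 supplied from 36.1% to 49.3% of it in a library. Per kilobase of GENCODE exons, the mean level over the 4 libraries was 6.18 CPM for H1f2, 3.65 for H1f1, 2.47 for H1f5, 2.45 for H1f4 and 0.553 for H1f3, whose annotated exons are 7425 bases long.

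H2A forms a dimer with H2B at the outside of the nucleosome core. Its counts were dominated by H2ac23 (Hist1h2ao, chr13:21810367-21810918), which had 820 and 5704 counts in the knockout libraries against 29 and 2901 in the wild-type libraries. The second library of each group was high and the first low. The replicates differed 7.32-fold in knockout and 99.3-fold in wild type. Its log2 fold change was 1.23 with an SE of 1.55, and without knockout 2 it turned to -0.84. H2ac23 alone held 30.2% and 81.1% of all histone counts in the knockout libraries and 1.91% and 73.3% in the wild-type libraries. Only 6.50% of its 50-base windows were found in no other gene, and it shared windows with H2ac24 (Hist1h2ap), one of the members with no row.

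H2ac6 (Hist1h2ac, chr13:23683473-23683959) had 40 and 8 counts in the knockout libraries against 127 and 41 in the wild-type libraries. The highest knockout library lay just below the lowest wild-type library. Its level was 1.26 ± 1.17 CPM in knockout and 4.38 ± 3.19 CPM in wild type (SD, n = 2 each), and the log2 fold change of -1.78 (SE 0.88) did not pass the test (adjusted p = 1.00 by edgeR's quasi-likelihood test). The log2 fold change was -0.74 without wild type 1 and -3.30 without knockout 1. H2ac4 (Hist1h2ab) was the other H2A gene with a sizeable negative value, with 10 and 6 counts in knockout against 17 and 10 in wild type. Its log2 fold change was -0.71, and it passed the filter only through the wild-type libraries.

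H2ac12 (Hist1h2ah) had 24 and 10 counts in knockout against 13 and 5 in wild type, and a log2 fold change of 0.94 (SE 0.81). H2aw (Hist3h2a), from the small Hist3 cluster, had 119 and 60 counts in knockout against 98 and 55 in wild type, with a log2 fold change of 0.26. In both genes the groups overlapped. The other 5 tested H2A genes ranged from -0.09 for H2ac1, a testis H2A, to 0.44 for H2ac8. Of the 10 tested H2A genes, 7 values were positive and 3 negative, with a median of 0.24.

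**Figure D3:**
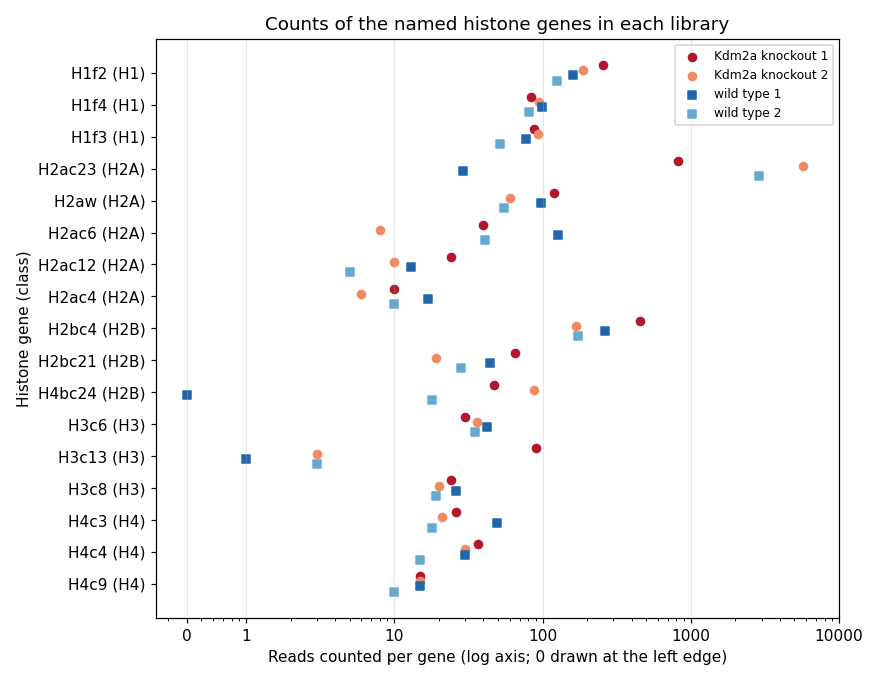
Read counts (log axis, 0 at the left edge) of 17 histone genes in the knockout libraries (circles) and wild-type libraries (squares). The wild-type counts of H2ac23 span 29 to 2901, while the 4 libraries of H1f4, H3c6 and H3c8 lie close together.

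Among H2B genes, H2bc4 (Hist1h2bc, chr13:23684199-23692480) had the most reads, with 455 and 169 counts in the knockout libraries against 262 and 173 in the wild-type libraries. Knockout 1 was the highest library, and knockout 2, at 9.29 CPM, lay between wild type 1 at 13.7 CPM and wild type 2 at 8.96 CPM, so the groups overlapped. Its log2 fold change was 0.55 (SE 0.51), and without knockout 1 it was -0.29. Unlike most members, its GENCODE transcript held no match to the stem-loop, and its level was 12.0 CPM per kilobase. H2bc21 (Hist2h2be) had 65 and 19 counts in knockout against 44 and 28 in wild type, with a log2 fold change of 0.24, and without knockout 1 it was -0.84. This H2B gene of the Hist2 cluster also lacked a stem-loop match and held a polyadenylation signal, and all of its 50-base windows were its own.

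H4bc24 (Hist1h2br, an H2B gene by its older name, chr13:21833743-21837530) had 47 and 87 counts in the knockout libraries against 0 and 18 in the wild-type libraries. The groups did not overlap. Its level was 3.62 ± 1.64 CPM in knockout and 0.466 ± 0.659 CPM in wild type (SD, n = 2 each). The log2 fold change of 2.94 (SE 1.21) had an unadjusted p of 0.0459 and an adjusted p of 1.00 by edgeR's quasi-likelihood test. Without wild type 1 its log2 fold change was 1.95, and limma-voom gave 4.44 over all 4 libraries. Without wild type 2 the remaining wild-type library is at 0, and the fitted 9.09 is no bound. Only 11.3% of its 50-base windows were unique, and it shared windows with H2bc23 (Hist1h2bq), another member with no row. H2bc23 lies beside H2ac23 in one copy of the shared promoter stretch, and H2ac24 lies beside H4bc24 in the other, so each copy has a row for 1 of its 2 genes. The other 4 tested H2B genes ranged from -0.38 for H2bu2 to 0.51 for H2bc3, and the median over the 7 tested H2B genes was 0.43.

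Head-to-head pairs of an H2A and an H2B gene are a feature of these clusters, and 10 pairs among the members had starts 163 to 280 bases apart. The H2A gene had the higher mean count in 7 of the 10. Both genes were tested in 2 pairs. In one, H2ac6 had a log2 fold change of -1.78 and H2bc4 of 0.55, with the printed stretch between their starts. In the other, H2ac8 had 0.44 and H2bc8 had 0.43. Testis H2bc1 (Hist1h2ba), the partner of H2ac1, had 0 and 0 counts in knockout and 2 and 2 in wild type.

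H3 and H4 form the tetramer at the centre of the nucleosome, and their classes had the lowest summed levels. H3c6 (Hist1h3e) had 30 and 36 counts in knockout against 42 and 35 in wild type, with a log2 fold change of -0.18 (SE 0.55). H3c8 (Hist1h3g) had 24 and 20 counts in knockout against 26 and 19 in wild type, with a log2 fold change of 0.01, a value that turned negative at -0.03 when libraries were scaled by their totals or by the upper quartile. In both the libraries of the groups overlapped. The median over the 4 tested H3 genes was -0.08, and none was separated between the groups.

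H3c13 (Hist2h3b, chr3:96268654-96269155) did not pass the filter, with 90 and 3 counts in knockout against 1 and 3 in wild type. Most of the reads came from knockout 1, and none of its 50-base windows was unique. It shares them with its Hist2 neighbours, among them H3c14 (Hist2h3c1), which had 13 and 1 counts in knockout against 12 and 4 in wild type. When knockout 2 was left out, H3c13 was the one histone gene called (log2 fold change 5.41, SE 0.94, adjusted p = 0.000941 by edgeR's quasi-likelihood test), a value that rests on the single library knockout 1. That comparison called 8 of all genes (0.0549%).

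Of the H4 genes, H4c4 (Hist1h4d) had 37 and 30 counts in knockout against 30 and 15 in wild type, with a log2 fold change of 0.61 (SE 0.63). In scaled levels both knockout libraries lay above both wild-type libraries, at 1.93 and 1.65 CPM in knockout and 1.57 and 0.777 CPM in wild type. H4c3 (Hist1h4c) had 26 and 21 counts in knockout against 49 and 18 in wild type, with a log2 fold change of -0.47, and without wild type 1 it was 0.43. H4c9 (Hist1h4i) had 15 and 15 counts in knockout against 15 and 10 in wild type, with a log2 fold change of 0.30. Over the 6 tested H4 genes 4 values were positive and 2 negative, with a median of 0.39.

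H4c17 (Hist1h4m, chr13:21811746-21812150) lies just beside H2ac23 and had 3 and 40 counts in knockout against 0 and 0 in wild type. It did not pass the filter. Knockout 2, where H2ac23 was also highest, held most of these reads, and wild type 2, where H2ac23 had 2901 counts, held none. When knockout 1 was left out, H4c17 was called (adjusted p = 0.0450 by edgeR's quasi-likelihood test), with a fitted fold change that depends on a group at 0 and is not given. That comparison called 95 of all genes (0.646%). Its 50-base windows were 10.2% unique, and the others matched H4c18 (Hist1h4n) and further H4 genes. The other 28 members that did not pass the filter reached at most 12 counts in any library.

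Summed over all 62 members, the libraries differed more within a genotype than between genotypes. The sum was 142 and 386 CPM in the knockout libraries and 79.4 and 205 CPM in the wild-type libraries, a mean of 264 ± 173 CPM in knockout and 142 ± 88.9 CPM in wild type (SD, n = 2 each). The log2 ratio of the means was 0.89. Without H2ac23 the sums were 99.1 and 73.0 CPM in knockout and 77.9 and 54.8 CPM in wild type, and the log2 ratio was 0.38. Wild type 1 then lay between the knockout libraries. By class, H2B summed to 36.0 and 22.4 CPM in knockout and 22.7 and 16.01 CPM in wild type. H3 summed to 10.5 and 5.66 CPM in knockout and 6.58 and 5.34 CPM in wild type. H4 summed to 8.30 and 9.78 CPM in knockout and 8.25 and 5.65 CPM in wild type. Leaving out 1 library at a time moved the log2 ratio of the full sum between -0.0057, without knockout 2, and 1.74, without wild type 2.

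**Figure D4:**
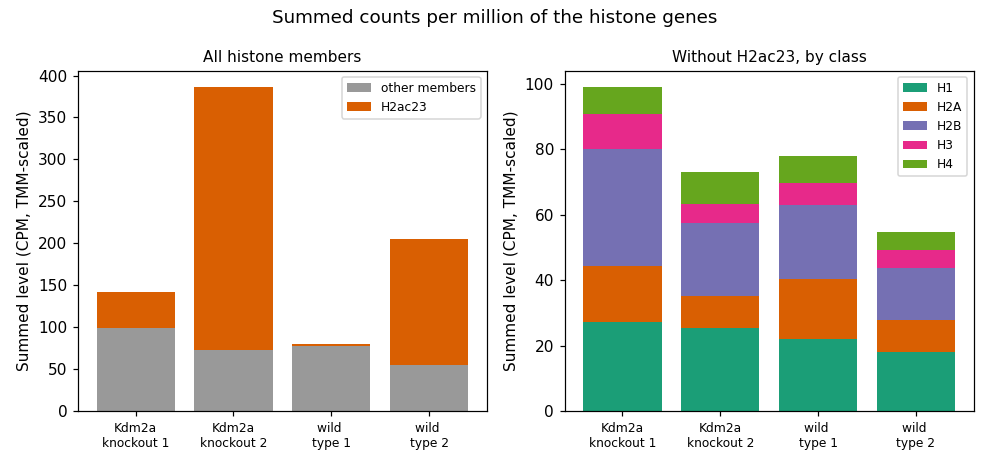
Summed level (TMM-scaled CPM) of the histone genes in each library, with H2ac23 set apart on the left and the other members stacked by class on the right. H2ac23 makes up most of the sum in knockout 2 and wild type 2, and without it wild type 1, at 77.9 CPM, lies between the knockout libraries.

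Among the genes that make and handle histones, none passed the test in any list, as none did among all genes. Of 24 factors of histone pre-mRNA processing and decay, 15 values were positive and 9 negative, with a median of 0.01. Slbp, which binds the stem-loop, had 1559 and 1257 counts in knockout against 1197 and 2045 in wild type, with a log2 fold change of -0.16. Srrt, a cap-binding partner and the highest of this list, had 7836 and 7628 counts in knockout against 5929 and 7522 in wild type. Of 13 factors of histone gene transcription, 8 values were positive and 5 negative, with a median of 0.07. The cyclin Ccna2 was the highest of them, with a log2 fold change of -0.05, and Npat, the coactivator of the histone locus body, had 0.01. Of 17 chaperones and import factors, 11 values were positive and 6 negative, with a median of 0.06. Nasp, a carrier of soluble histone and the highest of that list, had 13567 and 10991 counts in knockout against 8287 and 12322 in wild type.

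Genes of the cell cycle phase in which histones are made stood near 0. Over 37 genes of S phase and DNA replication the median log2 fold change was -0.03, with 17 values positive and 20 negative. Their summed level was 8054 and 7258 CPM in knockout and 7462 and 7921 CPM in wild type. Mcm5, a subunit of the replicative helicase, had a log2 fold change of 0.07. Over 22 genes of G2 and mitosis the median was -0.03, and Top2a, the highest, had -0.14.

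The 11 tested genes listed as replication-independent variants were far more deeply counted and gave a median of 0.03. H2ax, the highest of the list, had 15587 and 7446 counts in knockout against 12124 and 10888 in wild type, and the groups overlapped. The 3′ ends of the mRNAs in this list were not examined, so the list may include genes that also make stem-loop mRNA. H1f0, the linker histone of resting cells, had 2504 and 2389 counts in knockout against 1739 and 1322 in wild type. Its log2 fold change of 0.72 (SE 0.24) had an unadjusted p of 0.0197 and an adjusted p of 1.00 by edgeR's quasi-likelihood test. It was picked out here after its values were seen. H2az1 (H2A.Z) had a log2 fold change of 0.34 (SE 0.25).

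Other RNAs that lack a poly(A) tail differed in summed level between the 2 knockout libraries and less between the wild-type libraries, with most reads from Rpph1. Of 20 listed, 14 had a row and 4 were tested, and their summed level was 26.5 and 5.0 CPM in knockout against 18.6 and 21.6 CPM in wild type. Rpph1, the RNA of ribonuclease P, had 428 and 64 counts in knockout against 295 and 373 in wild type. Knockout 2, which held the most H2ac23 reads, was the lowest library for the sum of these RNAs. Their part in the histone values was not tested. The 11 other genes that lie between members in the clusters included 3 that were tested, with a median of -0.09, and Zfp184, the highest, had 299 and 228 counts in knockout against 304 and 319 in wild type.

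Markers of other cell types were counted beside these values, with 0 called in each list. The 8 tested of 10 primitive endoderm markers had a median log2 fold change of 0.19 and a summed level, over all 10, of 387 and 477 CPM in knockout against 540 and 388 CPM in wild type. Most of this sum came from Sparc, Lama1 and Col4a1, with means of 289, 95.9 and 51.0 CPM over the 4 libraries. Gata4 had a mean of 4.98 CPM. The median was 0.30 over 5 tested mesoderm markers, 0.46 over 6 neural markers, 0.14 over 7 trophoblast markers, -0.34 over 10 markers of 2-cell-like cells and -0.12 over 5 fibroblast markers. The summed neural level was 144 and 210 CPM in knockout against 118 and 181 CPM in wild type, and that of 2-cell-like markers was 184 and 197 CPM in knockout against 140 and 236 CPM in wild type. Most of the 2-cell-like sum came from Eif1a, with 3007 and 3474 counts in knockout against 2411 and 4040 in wild type. Its mean was 171 CPM, against 3.53 CPM for Zscan4c, so the sum mainly follows Eif1a. The part of other cell types in the histone values was not tested.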

How the data were processed

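Gene counts of 4 RNA-seq libraries, 2 labelled Kdm2a knockout and 2 wild type, were analysed. The authors deposited whole-number read counts per gene, without normalization. HISAT2, featureCounts and the build mm10 are named, per the submitters' processing notes. Not given in the sources used here are the tool versions, the gene annotation, whether counting used strand, and how reads with several matches were handled. Reads are 50 bases long, per the labels' protocols. Gene numbers were matched to RefSeq (GRCm38.p6) symbols for 24061 of the 24116 rows, and 55 did not match. The 2 pseudogene rows of the histone clusters were left out. Table columns headed as controls were taken as the wild-type samples of the same number.

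Counts were tested in R 4.3.3 with edgeR 4.0.16. The filter filterByExpr (minimum count 10, minimum total 15) kept 14194 genes. Scaling was by TMM, and the 2 genotypes were compared by the quasi-likelihood test with Benjamini-Hochberg adjustment across the 14194 genes (threshold 0.05). For the SE, the size of the log2 fold change was divided by √F. CPM is TMM-scaled. Per-kilobase levels and 50-base windows used GENCODE vM21 exons and transcripts. Differences between replicates were taken on log2 of CPM with a pseudocount of 0.1. The scripts were tested on simulated counts. DESeq2 1.42.0, limma 3.58.1, other scalings and filters, a replicate block and leaving out each library were tried as alternatives.

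Named members were the 3 with the highest mean CPM per class, the 5 with the lowest p and the 3 with the largest change each way, and each gene list gave its highest member. Other members in the text, and Slbp, Npat, H1f0 and H2az1, were named after their values were seen. The members and lists were chosen with earlier results of these data known.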

Additional observations from a re-analysis of the deposited data

How the results depend on the processing

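Under other scalings, filters and tests, 0 histone genes were called, and the median log2 fold change of the tested members stayed between 0.22 and 0.32. The log2 ratio of summed CPM was 0.83 to 0.89 under the scalings and 0.38 without H2ac23. Over all genes, DESeq2 called 2 and the likelihood ratio test 4. Under the other scalings, 7 to 10 of the 32 tested members lay above both wild-type libraries and 2 to 3 below. The shares over all genes under these scalings are not given, so these numbers cannot be set against a background. Without a filter, 23 of 62 members lay above and 6 below wild type, against 12.5% and 12% of genes. Upper quartile scaling turned H1f4 to -0.0130 and H3c8 to -0.0293, and scaling by library totals turned H1f4 to -0.0181 and H3c8 to -0.0350. Leaving out 1 library leaves 36 to 40 members tested and a lone sample that is assumed to vary like the other group. It gave 0 to 95 genes called over all genes, 0 to 1 histone genes called, 17 to 23 members higher and 4 to 10 lower (26% to 36.9% and 25.3% to 36.6% of genes), a median of 0.15 to 0.51, a summed ratio of -0.0057 to 1.74 and a Kdm2a log2 fold change of 0.21 to 0.64. Its ranges that cross 0 were -0.11 to 0.19 for H1f4, -0.84 to 6.87 for H2ac23, -0.27 to 0.74 for H2aw, -0.84 to 0.86 for H2bc21, -0.29 to 1.07 for H2bc4, -0.20 to 0.26 for H3c8 and -1.01 to 0.43 for H4c3. Ranges on one side of 0 included 0.48 to 0.87 for H1f2, 0.28 to 0.85 for H1f3, -3.30 to -0.74 for H2ac6, 0.22 to 1.78 for H2ac12 and 0.20 to 1.20 for H4c4. H4bc24 ranged from 1.95 to 3.33, apart from the fit without wild type 2. That fit leaves wild type at 0, and its 9.09 is no bound. Of 221 recomputed fold changes of the 16 named histone genes that were tested, 206 kept their direction. The other named gene, H3c13, did not pass the filter and is not among them. Its value without knockout 2 is given with its class. With a replicate block, 0 histone genes were called and the median was 0.23. Knockout 1 and wild type 1 deviated from their group means with a correlation of 0.35 across the tested genes. Knockout 2 and wild type 2 give the same value by construction. Same-numbered libraries share only a number by their labels. The SE of a log2 fold change had a median of 0.681 among the 32 tested members, against 0.347 among all genes tested.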
